A study of Mus musculus with 10 samples.

Results

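Cytosolic ribosomal protein genes encode the protein part of the ribosomes that translate nuclear mRNAs in the cytoplasm. They were chosen by name: mouse symbols made of Rpl or Rps and a number, with the endings that name copies, plus Rpsa, Rplp0, Rplp1 and Rplp2, and without the Rps6k kinases. For each gene the probe with the highest mean over the 10 arrays was used. In all, 82 such genes had a probe, of 19096 genes named on the array, 32 of them in the small and 50 in the large ribosomal subunit. The rule matched 89 symbols in the reference table, and 7 of those had no probe paired with them here.

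A cytosolic ribosome is built from a small subunit, which reads the mRNA, and a large subunit, which joins the amino acids and feeds the new chain through a tunnel. Its proteins are made in matched amounts, since a protein that is not built into a subunit is usually degraded. Their mRNAs are among the most abundant in a cell, and most begin with a run of pyrimidines, the terminal oligopyrimidine tract, through which mTORC1 signalling controls how well they are translated. LKB1, the kinase lost in these tumors, is known to restrain mTORC1 through AMPK. In these tumors, however, the paper reported unchanged AMPKα phosphorylation and reduced mTOR phosphorylation.

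Total RNA of 10 mouse samples was hybridised to single-colour Agilent whole-genome arrays, 5 for wild type lungs and 5 for tumors. WT mice were Lkb1f/f, carried no Cre, and gave whole lung. SCC mice were CCSPiCreLkb1f/f and gave whole lung tumor, from the squamous cell carcinomas that form when Lkb1 is deleted. All were 13 months old, of strain B6.129 in the labels (B6;129 in the methods) and untreated. The iCre is driven by the promoter of the club cell secretory protein (CCSP), so Lkb1 is deleted in airway cells that use this promoter and their progeny, while stromal and immune cells of the tumor keep the gene. Nothing in the labels says that each sample is a separate animal, so p-values measure the spread between these samples. The Lkb1 gene itself was not analysed here, as no probe was paired with it. In whole tissue, fewer cells of a type and less RNA per cell cannot be told apart.

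The labels were compared with marker genes. All 6 squamous markers (Krt5, Krt14, Trp63, Krt6a, Dsg3 and Sprr1b) rose in SCC. Their mean log2 signal was 3.87 to 4.63 in WT and 9.97 to 14.15 in SCC, lowest in SCC replicate 2. Krt6a, Dsg3 and Sprr1b were well above background on 0 of 5 WT arrays and were tested through their SCC arrays, so the WT mean is partly background. For Sprr1b SCC replicate 2, at 1.86, lay within the WT range of 1.81 to 3.34. The 4 proliferation markers also all rose, from 7.68 to 8.62 in WT to 9.68 to 11.27 in SCC, and the 3 endothelial markers all fell, from 14.07 to 14.36 in WT to 11.69 to 12.74 in SCC. All 3 B cell markers, 2 of 3 T cell markers and 3 of 4 alveolar markers also fell, and 2 of 3 neutrophil markers rose. Of 3 macrophage markers 1 rose and 1 fell. Every comparison below is between tissues that differ in these markers, and the part of cell types in the values of the ribosomal protein genes was not tested. SCC replicate 5 had 90.2% of its probes well above background, against 71.0% to 74.5% on the other 9 arrays. WT replicates 1 to 4 shared slide 1, WT replicate 5 and SCC replicates 1 to 3 slide 2, and SCC replicates 4 and 5 slide 3.

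The signal of these genes was high. Each of the 82 genes was tested, and 81 were well above background on all 10 arrays. The exception was Rpl39l, which was well above background on 2 of 5 WT and all 5 SCC arrays. The median quantile-normalized log2 signal was 16.24, with a range from 5.20 for Rpl3l to 18.05 for Rps23, and 74 of the 82 probes were among the 3038 brightest of the tested probes (mean log2 signal from 12.72 upwards). Among the 100 brightest probes of the whole array, 36 belonged to these genes. A probe's signal depends on its sequence as well as on its transcript, so these figures describe probes and do not rank the mRNAs. No probe was marked as saturated. The median SD between replicates was 0.094 in WT and 0.11 in SCC on the log2 scale, beside 0.15 and 0.38 over all tested probes and 0.11 and 0.18 over the 3038 brightest.

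Most of the 82 genes showed small differences between SCC and WT. In SCC 16 genes were higher and 8 lower at an adjusted p below 0.05 (limma, Benjamini-Hochberg over all 30374 tested probes), and 58 did not pass. Over all tested probes 49.0% passed the same threshold, 22.4% higher and 26.6% lower in SCC. The ribosomal protein genes that rose, 16 of 82, were near this background, and the 8 that fell were below it. This depended on the processing: 31 of 82 rose with arrays scaled to their 75th percentile, beside 25.5% of all tested probes, 4 with arrays scaled to their median, beside 14.8%, and 0 with slide as a block, beside 6.11%. At an unadjusted p below 0.05 the slide block had 7 genes higher and 3 lower, beside 30.3% of all tested probes in either direction. Of the 3038 brightest probes 57.5% passed, 26.7% higher and 30.8% lower. The median difference between SCC and WT (log2) was 0.0063 over the 82 genes and -0.09 over all tested probes, or 0.0022 and -0.04 without SCC replicate 5. The SD of the differences was 0.42, beside 1.22 over all tested probes and 0.90 over the 3038 brightest. Only Rpl39l (higher) and Rps4l (lower) also differed at least 2-fold, where 22.9% of all tested probes did so (9.92% higher and 13.0% lower), and 16.4% of the 3038 brightest. Rpl39l, also counted among the 16 that rose, was mostly not above background in WT and entered the test through its SCC arrays. Without it 1 gene past 2-fold remains. Rpl39l and Rps4l are both paralogs, copies of a ribosomal protein gene that stand beside the common form. In 14 genes all SCC values lay above all WT values and in 8 all lay below, beside 16.3% and 21.0% of all tested probes, or 37.4% in either direction. For each of these genes the exact two-sided permutation p over the arrays was 0.00794, the smallest that 5 against 5 allow.

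**Figure D1:**
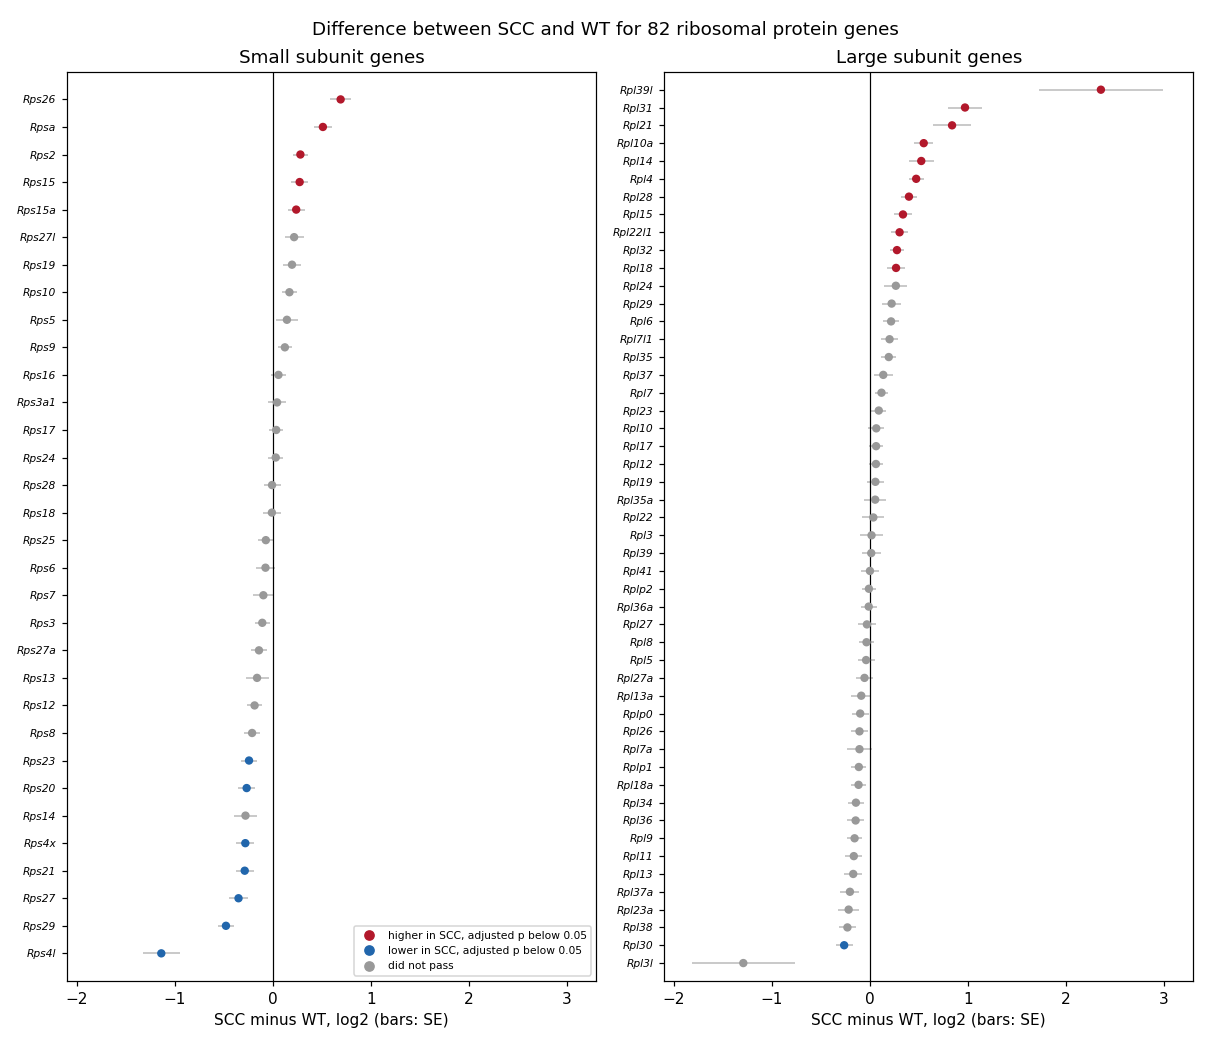
Difference between SCC and WT on the log2 scale (x axis) for 32 small subunit genes (left) and 50 large subunit genes (right), each point 1 gene from 5 WT and 5 SCC arrays, with its standard error as a bar. Most points lie close to 0, with 16 genes higher (red), 8 lower (blue) and 58 that did not pass (grey). Rpl39l, at 2.36, and Rps4l, at -1.14, stand farthest out among those that passed.

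Without the 6 paralogs (Rpl3l, Rpl7l1, Rpl22l1, Rpl39l, Rps4l and Rps27l), 14 of 76 genes were higher and 7 lower, the median difference was -0.0047 and the SD of the differences 0.27. None of these 76 reached 2-fold. Among 50 large subunit genes 11 (Rpl39l included) were higher and 1 lower, with a median difference of 0.025. Among 32 small subunit genes 5 were higher and 7 lower, with a median of -0.04. Both stand beside 22.4% higher and 26.6% lower over all tested probes. The contrast between subunits was not tested, and of the 8 genes that fell only Rps4l passed with arrays scaled to their 75th percentile or median. Leaving out any single array, 16 of the 24 genes past the threshold stayed past it, while Rpl18, Rpl30, Rps15, Rps15a, Rps20, Rps21, Rps23 and Rps4x each missed it in some of these fits. The number of genes that were lower in SCC fell from 8 to 4 without WT replicate 4 and to 5 without WT replicate 2, WT replicate 5, SCC replicate 3 or SCC replicate 4. In these fits 23.0% to 24.2% of all tested probes were lower.

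Among the large subunit genes that rose, Rpl31 is described here and the paralog Rpl39l further on. Its protein sits at the mouth of the tunnel through which the new chain leaves. The log2 signal of Rpl31 was 11.29, 11.06, 11.03, 11.30 and 10.90 in WT replicates 1 to 5 and 12.21, 11.48, 12.21, 12.35 and 12.18 in SCC replicates 1 to 5. Every SCC array was above every WT array, with SCC replicate 2 lowest of the 5. The difference was 0.97 ± 0.17 (SE, 5 against 5), or 1.96-fold (limma adjusted p = 0.00119). A second, dimmer Rpl31 probe gave 1.01 ± 0.12. For Rpl21, which encodes another large subunit protein, the WT values were 10.24, 10.30, 10.54, 10.64 and 10.59 and the SCC values 11.18, 10.78, 11.69, 11.11 and 11.73. These groups did not overlap either, and the difference was 0.84 ± 0.19 (limma adjusted p = 0.0052). The second Rpl21 probe gave -0.24 ± 0.11 (limma adjusted p = 0.104), so the Rpl21 result rests on 1 probe.

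Rpl10a, a protein of the stalk beside the exit of spent tRNAs, rose by 0.55 ± 0.10 (limma adjusted p = 0.00139), from 14.22 to 14.55 in WT to 14.79 to 15.05 in SCC. Rpl4, which lines the exit tunnel, rose by 0.47 ± 0.08, from 12.98 to 13.19 in WT to 13.48 to 13.67 in SCC, again without overlap. Rpl14 rose by 0.52 ± 0.13, but its groups met, since SCC replicate 2 lay just below WT replicate 4. The other large subunit genes that rose were Rpl28 (0.40), Rpl15 (0.34), the paralog Rpl22l1 (0.30), Rpl32 (0.28) and Rpl18 (0.27), given as log2 differences.

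Of the small subunit genes 5 rose as well, led by Rps26, whose protein lines the channel by which mRNA leaves the small subunit. Its WT values were 14.33, 14.20, 14.26, 14.39 and 14.17 and its SCC values 14.93, 14.68, 15.12, 14.89 and 15.18. The lowest SCC array, replicate 2, was still above every WT array, and the difference was 0.69 ± 0.11, or 1.61-fold (limma adjusted p = 0.000701). Rpsa, a small subunit protein that is also known as a cell surface receptor for laminin, read 13.70, 13.77, 13.71, 14.06 and 13.81 in WT and 14.24, 14.41, 14.35, 14.39 and 14.20 in SCC. WT replicate 4 was the closest to the SCC arrays, and the difference was 0.51 ± 0.10 (limma adjusted p = 0.00174). Rps2, at the mRNA entry of the small subunit, rose by 0.28 with hardly any spread within WT, where its 5 values ran from 17.07 to 17.13. Rps15 rose by 0.27 and Rps15a by 0.24, the latter at 1 probe, as a dimmer Rps15a probe gave -0.29 and did not pass.

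The genes that fell were mostly of the small subunit. Rps29, a small zinc-binding protein of the subunit's head, read 17.37, 17.27, 17.35, 17.35 and 17.25 in WT and 16.94, 16.72, 16.90, 16.71 and 16.92 in SCC. All SCC values were below all WT values, and the signal fell by 0.48 ± 0.08 on the log2 scale, 1.39-fold (limma adjusted p = 0.00107). In Rps27, another zinc-binding protein, the WT values were 17.38, 17.46, 17.39, 17.45 and 17.46 and the SCC values 17.13, 17.34, 16.99, 16.96 and 16.97. SCC replicate 2 was the nearest to WT, without reaching it, and the difference was -0.35 ± 0.09 (limma adjusted p = 0.0113). Differences of -0.29 for Rps21, -0.28 for Rps4x, -0.27 for Rps20, -0.26 for Rpl30 and -0.24 for Rps23 also passed. Rps23 is part of the decoding centre, and Rpl30 was the only large subunit gene that fell.

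**Figure D2:**
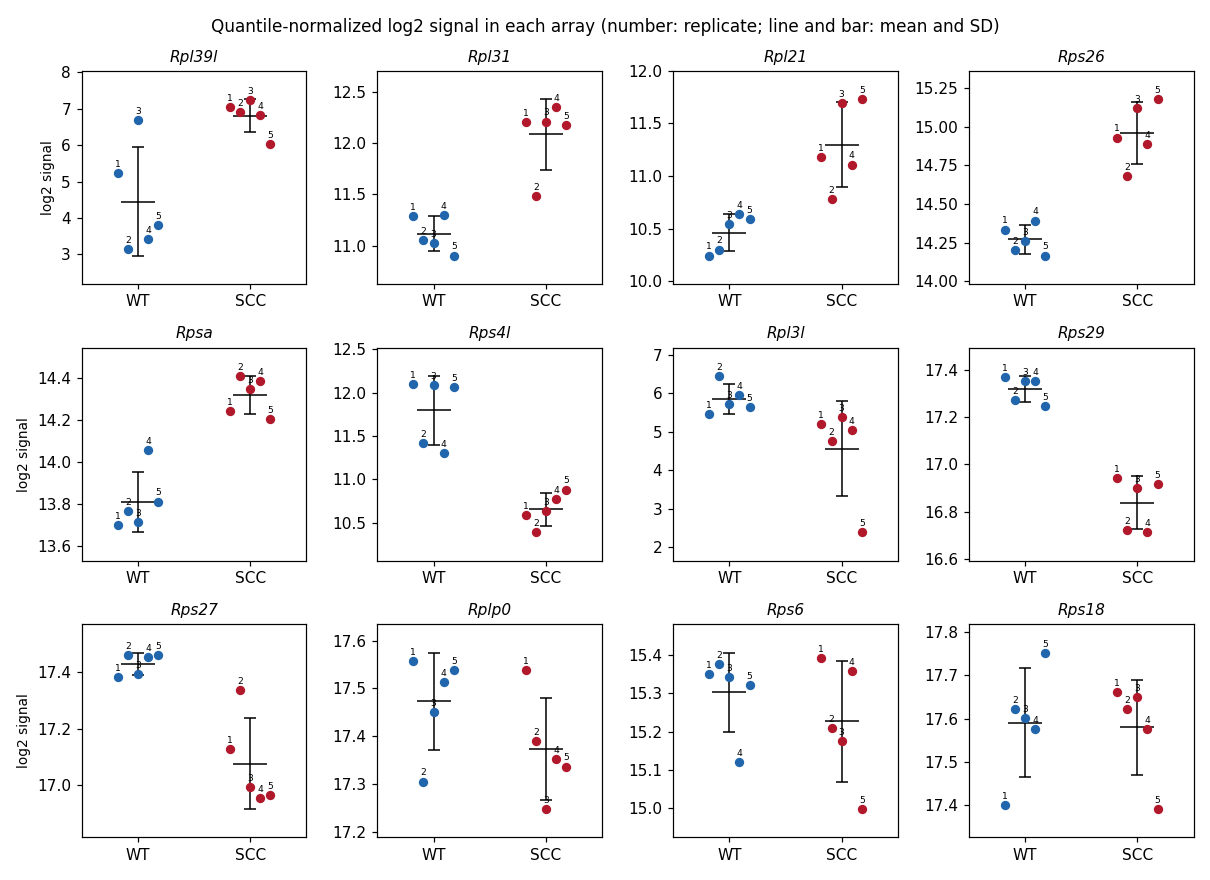
Quantile-normalized log2 signal (y axis, a separate range in each panel) of 12 ribosomal protein genes in each of 5 WT (blue) and 5 SCC (red) arrays, with the replicate number above each point and the group mean ± SD as a line and bar. Rpl31, Rpl21, Rps26 and Rpsa lie higher and Rps4l, Rps29 and Rps27 lower in SCC without overlap, while Rplp0, Rps6 and Rps18 overlap.

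Promoter windows of RefSeq (build GRCm38.p6, 250 bases before to 50 after the annotated start) were found for 62 of the 82 genes, some with several starts, 74 windows in all. They are shown because the genes share the pyrimidine tract at their mRNA start, the feature on which mTORC1 acts. Searched on both strands of each window were the letters CTTTCC, then CTTTTC, then CCTTTC, and last CTCTTC, of which some can overlap in a longer run. They occurred in 79.7% of the ribosomal protein windows and in 63.0% of all 32851 promoter windows of that length. On the gene's own strand within 10 bases on either side of the annotated start, a span chosen after the windows had been read, they occurred in 23.0% and 2.79%. Of 15 windows of genes that rose 12 held the letters somewhere, of 5 windows of genes that fell 5 did, and of 54 windows of genes that did not pass 42 did. A match is only a run of letters, and no factor or start site was measured here. The 60 bases around the start are given below for Rpl31, Rpl4, Rpsa, Rpl28 and Rps26, which rose, for Rps27, which fell, and for Rpl39l and its parent Rpl39, with the searched letters in capitals and the annotated start as base 31.
Rpl31 (chr1:39367821-39367880, plus strand): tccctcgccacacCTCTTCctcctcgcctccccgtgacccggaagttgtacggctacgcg
Rpl4 (chr9:64173357-64173416, plus strand): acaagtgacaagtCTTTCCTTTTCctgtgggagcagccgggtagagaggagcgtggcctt
Rpsa (chr9:120127736-120127795, plus strand): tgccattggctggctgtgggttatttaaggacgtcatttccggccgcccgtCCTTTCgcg
Rpl28 (chr7:4792935-4792994, plus strand): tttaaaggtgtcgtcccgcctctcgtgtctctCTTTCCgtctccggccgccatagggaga
Rps26 (chr10:128626477-128626536, minus strand): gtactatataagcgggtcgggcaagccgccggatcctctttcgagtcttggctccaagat
Rps27 (chr3:90213619-90213678, minus strand): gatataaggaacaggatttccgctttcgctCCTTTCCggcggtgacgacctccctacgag
Rpl39l (chr16:10170198-10170257, plus strand): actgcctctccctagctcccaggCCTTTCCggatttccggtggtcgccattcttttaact
Rpl39 (chrX:37085193-37085252, minus strand): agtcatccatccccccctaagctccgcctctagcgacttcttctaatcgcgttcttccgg
All letters of a match lay within that span of 10 bases on either side of the start in Rpl28 and Rpl39l, which rose, and in Rps27, which fell, but not in Rpl4, Rpl31 and Rpsa. None of them stood in the printed stretch of Rps26 or of Rpl39.

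Differences of the 6 paralogs ran from -1.29 to 2.36, and those of the other 76 genes from -0.48 to 0.97. Rpl7l1, Rpl22l1 and Rps27l lay within the range of the other genes, the spread of the 2 sets was not tested, and Rpl3l and Rpl39l had the dimmest probes. Rpl39l replaces Rpl39, a tiny protein of the exit tunnel, in part of the ribosomes of male germ cells. Its log2 signal was 5.22, 3.14, 6.68, 3.41 and 3.80 in WT and 7.05, 6.91, 7.22, 6.82 and 6.03 in SCC. The SCC arrays were close together, whereas WT was widely spread, and WT replicate 3 was higher than SCC replicate 5. The difference, given as a description, was 2.36 ± 0.63, and 2.91 without WT replicate 3. Only 2 of the 5 WT arrays measured it well above background, so the gene passed the filter on low signal through its SCC arrays, and its size is uncertain: it was 0.65 with normexp background correction and 3.26 with slide as a block, where it did not pass. A second Rpl39l probe had no array with a signal well above background. Rpl39 itself, from 15.96 to 16.15 in WT and 15.82 to 16.23 in SCC, differed by 0.013 ± 0.10 and did not pass.

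Rps4l, a copy of Rps4x, was the other paralog past 2-fold. It read 12.10, 11.41, 12.08, 11.30 and 12.07 in WT and 10.59, 10.39, 10.64, 10.77 and 10.88 in SCC. WT replicates 2 and 4 were the lowest of their group, yet above every SCC array, and the signal fell by 1.14 ± 0.19 on the log2 scale, 2.20-fold (limma adjusted p = 0.000906). Its parent Rps4x, one of the proteins of the small subunit's body, had a difference of -0.28 ± 0.09, with SCC replicate 4 at 17.01 within the WT range. Rpl3l, the form of Rpl3 used in heart and skeletal muscle, was 5.47, 6.45, 5.72, 5.96 and 5.65 in WT and 5.20, 4.76, 5.38, 5.05 and 2.39 in SCC. Its groups did not overlap, but SCC replicate 5 was far below the rest, and the difference of -1.29 ± 0.53 did not pass (limma adjusted p = 0.0658). Without SCC replicate 5 it was -0.75 (limma adjusted p = 0.0143). Rpl3l also passed with arrays scaled to their 75th percentile (-0.71) or median (-0.88), with normexp (-0.38) and with array quality weights (-0.83), so its size depends strongly on the processing.

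Of the 6 heart and skeletal muscle markers 3 fell in SCC, their mean log2 signal was 8.88 to 11.16 in WT and 7.85 to 8.59 in SCC, and all 6 were well above background on every WT array. WT replicate 2 had the highest Rpl3l value and the highest value of this marker list. The part of muscle tissue in the Rpl3l values was not tested. Rpl3 itself differed by 0.016 ± 0.12.

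Among the remaining paralogs, Rpl22l1 rose by 0.30 ± 0.08 (limma adjusted p = 0.0136), from 14.96 to 15.23 in WT to 15.31 to 15.49 in SCC, without overlap. Its parent Rpl22, an RNA-binding protein known to repress Rpl22l1, differed by 0.03 ± 0.11 at its brightest probe and by -0.57 ± 0.08 at a dimmer probe, which passed. Rps27l, a target of p53, differed by 0.22 ± 0.10 and its parent Rps27 by -0.35, and only the latter passed. Rpl7l1 differed by 0.20 ± 0.08 and Rpl7 by 0.12 ± 0.07 at their brightest probes, neither past the threshold, while a dimmer probe of each passed, at 0.51 for Rpl7l1 and 0.38 for Rpl7. Whether a paralog's difference departed from that of its parent was not tested.

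In some working parts of the ribosome no brightest probe passed, beside the 49.0% of all tested probes that did. The stalk that recruits elongation factors (Rplp0, Rplp1, Rplp2 and Rpl12) had 0 of 4, with differences between -0.11 and 0.06, although a dimmer Rplp0 probe passed, and so did Rpl12 with arrays scaled to their 75th percentile. Rpl5 and Rpl11, which bind the 5S rRNA and, when unbuilt, MDM2, had differences of -0.04 and -0.16. Of the 8 genes around the exit tunnel (Rpl4, Rpl17, Rpl19, Rpl23a, Rpl26, Rpl31, Rpl35 and Rpl39) only Rpl4 and Rpl31 passed, both higher. Rpl35 missed the threshold at 0.19 although its groups did not overlap, and the value of Rpl23a, -0.22, was fitted without SCC replicate 3, where its spot was discarded. At the mRNA entry Rps2 rose while Rps3, at -0.11, did not pass, although a dimmer Rps3 probe passed at -0.32.

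Rps6, the small subunit protein that S6 kinase phosphorylates, read 15.35, 15.38, 15.34, 15.12 and 15.32 in WT and 15.39, 15.21, 15.18, 15.36 and 14.9963 in SCC. The groups overlapped widely, and the difference was -0.08 ± 0.10 (limma adjusted p = 0.55). An array of mRNA levels does not measure that phosphorylation. Rps27a, made as a fusion with ubiquitin, differed by -0.14 ± 0.08. Rplp0, Rpl13a and Rps18 are customary reference genes for quantitative PCR, and they differed by -0.10, -0.09 and -0.01 with none past the threshold. For Rps18 the WT values were 17.40, 17.62, 17.60, 17.58 and 17.75 and the SCC values 17.66, 17.62, 17.65, 17.58 and 17.39, lowest in SCC replicate 5 and in WT replicate 1. For Rplp0 this held for the brightest probe alone, as a dimmer probe gave 0.61 ± 0.09 (limma adjusted p = 0.00037).

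Where several probes were made to 1 gene they often gave different answers. For 30 genes with over 1 tested probe, 36 dimmer probes could be set against the brightest. Of these, 27 gave a higher and 9 a lower difference than the brightest probe, with a median gap of 0.11, and in 14 of the 30 genes some probes had opposite signs. Past the threshold were 12 of the 36 dimmer probes with a higher and 2 with a lower signal in SCC, beside 22.4% and 26.6% of all tested probes, and in 11 genes a dimmer probe passed where the brightest did not. No gene had its brightest and a dimmer probe both past the threshold with opposite signs. The widest gaps upward were in Rps25, with -0.07 against 0.70, in Rplp0, with -0.10 against 0.61, and in Rpl7a, with -0.11 against 0.51. Rpl21 and Rpl22 had the widest gaps downward. Ribosomal protein genes have many processed copies in the genome with near-identical sequence, which a probe may also bind, and the part of such binding in these gaps was not tested.

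**Figure D3:**
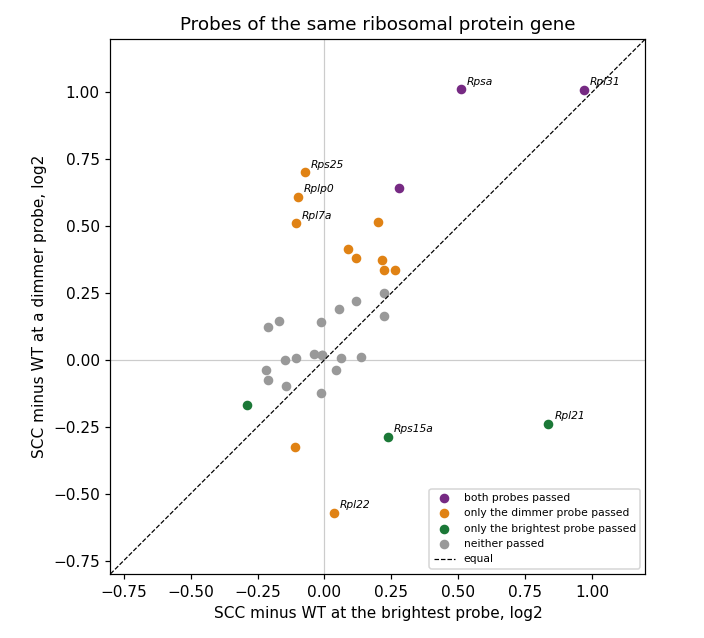
Difference between SCC and WT (log2) at the brightest probe of a gene (x axis) against that at each of its dimmer probes (y axis), for 36 dimmer probes of 30 genes, coloured by which probe passed the threshold, with equality as a dashed line. More points lie above the line (27) than below it (9), and only Rpl31, Rpsa and Rps2 had both probes past the threshold.

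The differences followed the brightness of the probe. Over the 76 genes without paralogs, Spearman's rho between mean log2 signal and the difference was -0.69, and it stayed between -0.70 and -0.68 without SCC replicate 2, without SCC replicate 5 and without both. All points share the same 10 arrays. At a mean log2 signal of 17 and above the median difference was -0.19 over 15 of the genes, paralogs included, and it was -0.09 over 29 genes between 16 and 17, 0.06 over 18 genes between 15 and 16, and 0.26 over 20 genes below 15. The other tested probes in these ranges had medians of -0.15, -0.07, -0.08 and -0.09, so they were also lower in SCC at the bright end, with no rise at the dim end. Of the 16 genes that rose 10 were below 15, and of the 8 that fell 6 were at 16 or above.

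The scaling of the arrays moved the whole set. With each array scaled to its 75th percentile, rho was -0.46 and the median difference of the 82 genes 0.22, while the median of all tested probes moved from -0.09 to 0.03. Relative to all tested probes the ribosomal protein genes then stood at 0.19, against 0.10 under quantile normalization. This offset was smaller in other fits, at 0.04 without SCC replicate 5, 0.02 with normexp and 0.02 with no filter. The 16 genes that rose all passed under the 75th percentile too, with 31 higher in all, but only Rps4l of the 8 that fell did, and Rps4x and Rps20 turned to small positive differences. With each array scaled to its median, all 16 and all 8 kept their direction, but 4 of the 16 (Rpl39l, Rpl31, Rpl21 and Rps26) and 1 of the 8 (Rps4l) passed. Of these, Rpl39l had entered the test through its SCC arrays.

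**Figure D4:**
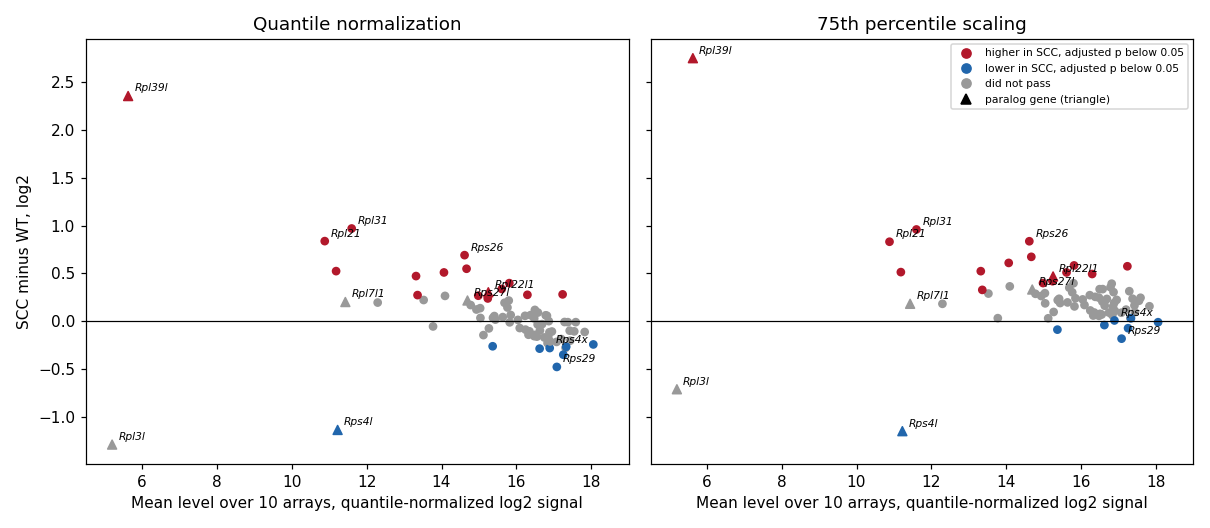
Difference between SCC and WT (y axis, log2) against the mean quantile-normalized log2 signal over 10 arrays (x axis) for 82 ribosomal protein genes, with quantile normalization (left) and 75th percentile scaling (right), paralogs as triangles, and colours by the result under quantile normalization. The cloud slopes down in both panels (rho -0.69 and -0.46 over 76 genes), and in the right panel nearly all points lie above 0.

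Under quantile normalization the genes moved little as a set across arrays. The median deviation of the 82 genes from their WT means lay between -0.03 and 0.08 on the 5 WT arrays and between -0.02 and 0.06 on the 5 SCC arrays, so the ranges overlapped. WT replicate 4 was the highest of all 10, with 63 genes above their WT mean. The split by brightness showed on each SCC array: genes at a mean of 16 and above had median deviations from -0.14 to -0.04, and dimmer genes from 0.14 to 0.23. SCC replicate 2, whose squamous and proliferation markers were the lowest of the SCC arrays, had -0.04 and 0.21 and did not stand apart here.

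Only slide 2 held both groups, with WT replicate 5 and SCC replicates 1 to 3. Within it the median difference was 0.41 over the 16 genes that rose and -0.33 over the 8 that fell. These 4 arrays also entered the fit that chose those genes, so the directions on this slide are no independent check, and the part of the slide was not tested apart from the groups. With 1 WT array on that slide no gene passed on it alone, and with slide as a block only Rps4l passed. Slide 1 held WT arrays only and slide 3 SCC arrays only.

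Genes that build and serve the ribosome were counted in the same fit, where 22.4% of all tested probes were higher and 26.6% lower. Over all related lists 92 of 222 tested genes rose and 25 fell. Only 15 rose with each array scaled to its median, where 14.8% of all tested probes did, and 16 with slide as a block, where 6.11% did, so their total share was above the background under quantile normalization, below it with median scaling and near it with the slide block. Of 61 tested ribosome assembly factors 28 rose and 2 fell, with a median difference of 0.25. Nhp2, a core protein of the particles that convert uridines in rRNA to pseudouridine, rose by 1.25, Eif6, which keeps new large subunits from joining too early, by 1.21, and Rrp12, an export factor, by 1.12. Sbds, which helps to release Eif6 from the large subunit, fell by 1.12 and Riok1 by 0.52. Of 14 RNA polymerase I genes, which transcribe the rRNA, 5 rose and 3 fell, with Polr1d at 1.11 and Taf1b at -0.66.

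Of 36 translation initiation factors 17 rose and 4 fell, with a median of 0.22. Eif4a1, the helicase that opens mRNA leaders, rose by 0.68, Eif4g1, the scaffold that joins it to the cap-binding protein, by 0.62, and Eif4e2 by 0.88, while Eif4e3 fell by 0.95. Among 11 elongation factors 5 rose and 4 fell. Eif5a rose by 1.02, Eef1b2 by 0.56 and Eef1g by 0.54. Eef1a2, the form of elongation factor 1A of muscle and neurons, fell by 1.99. Of the 6 heart and skeletal muscle markers only 3 fell (Myh6, Actc1 and Myl7), and the part of muscle tissue in the Eef1a2 values was not tested. Eef1a1, whose mRNA also begins with a pyrimidine tract, fell by 0.24, and Tpt1, another such gene, by 0.28.

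In the mTORC1 and S6 kinase list 3 of 18 genes rose and 4 fell, with a median of -0.03. Larp1, which binds the pyrimidine tract of ribosomal protein mRNAs, rose by 0.66 and Eif4ebp1, an inhibitor of cap binding, by 0.57. Tsc2, an inhibitor of mTORC1, fell by 0.72. Rps6ka6 (a kinase of another branch) fell by 2.57. Mitochondrial ribosomal proteins form a separate ribosome, and 33 of 78 of their genes rose and 7 fell, with a median of 0.22, led by Mrps18b at 0.71 and Mrpl12 at 0.64. Among ribosomal proteins whose symbols fall outside the rule, Rpl36al rose by 0.49, Fau, made as a fusion with a ubiquitin-like protein, fell by 0.29, and Rack1 (-0.06) did not pass. By median log2 signal the proteins outside the rule, at 17.06, were brighter than the cytosolic set, at 16.24. Probes of the other lists were dimmer, with a median of 10.79 for assembly factors and 12.02 for mitochondrial ribosomal proteins. The differences between lists were not tested.

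**Figure D5:**
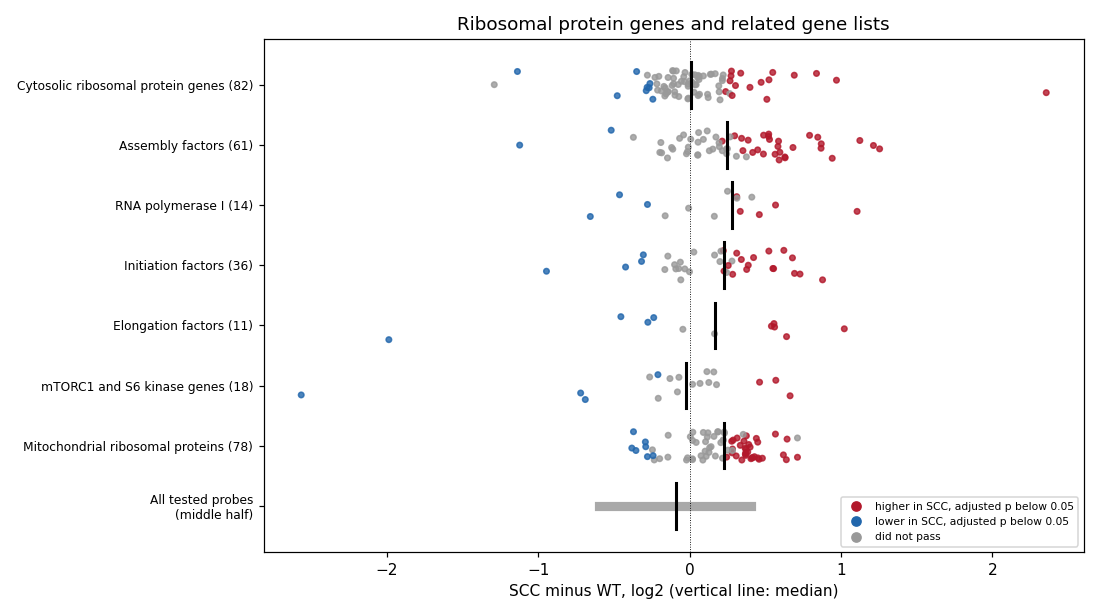
Difference between SCC and WT (x axis, log2) for each tested gene of the cytosolic ribosomal protein set and 6 related lists, with the number of genes in brackets, a vertical line at each median and, in the bottom row, the middle 50% of all tested probes as a bar. The cytosolic set is centred at 0.0063, assembly factors at 0.25, initiation factors at 0.22 and mitochondrial ribosomal proteins at 0.22.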

How the data were processed

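Scanner files of 10 arrays were used. Per the labels and the methods, Cy3-labelled cRNA was hybridised to Agilent 4 x 44 multiplex arrays and read with Agilent Feature Extraction (version 12 in the submitters' notes), and the deposited processed signal is a background-corrected intensity. The authors' deposited value table holds log2 values that followed the quantile-normalized scanner signal (lowest correlation of an array 0.999947), and the methods name OmicSoft Array Studio and, for the expression analysis, quantile normalization with log2 values. Spots flagged as outliers were left out, and log2 signals were averaged per probe and quantile-normalized, as in the study's methods. Of 41174 probes 30374 were tested, those well above background on at least 4 arrays of WT or at least 4 of SCC. A probe could thus enter through 1 group alone. The test was limma 3.58.1 (R 4.3.3), with Benjamini-Hochberg over all tested probes and a threshold of 0.05. The study's one-way ANOVA has its place taken by limma. For single values an exact two-sided permutation test was also run. Accessions were matched to symbols through RefSeq, giving 28223 probes with a name.

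The genes and lists were chosen with earlier results of these data known. Genes named with values were the 5 largest differences in each direction past the threshold, the 3 brightest and 3 dimmest probes, genes past 2-fold, paralogs with their parents, and the role groups described. Others named in lists passed the threshold and were picked after their values were seen. The files hold no mean signal per spot, so the normexp alternative used the median signal and median background. Array number and signal over background limit the precision. Some items are not reported here.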

Additional observations from a re-analysis of the deposited data

Results flagged for a closer look

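In each group of 5 arrays, the gap between the highest or lowest array and its nearest neighbour was divided by the range of the group, for 48 named ribosomal protein genes and for the medians over the whole set and over each subunit. Of 101 groups with a value on all 5 arrays, 10 held an array that stood apart by Dixon's limit, where chance gives about 1 in 20 independent groups. These groups are not independent, since all genes were read on the same arrays and the medians include them. The count is thus a description and cannot be held against that share. For Rpl31 in SCC the ratio was 0.799, with replicate 2 at 11.48 and the others at 12.18 to 12.35. For Rpl3l in SCC it was 0.791, with replicate 5 at 2.39 and the others at 4.76 to 5.38. For Rps4x in SCC it was 0.766, with replicate 4 highest at 17.01 and the others at 16.64 to 16.72.

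Among WT arrays, replicate 4 was the lowest for Rpl12 (ratio 0.711, 16.70 against 16.75 to 16.77) and for Rps6 (ratio 0.788, 15.12 against 15.32 to 15.38), and replicate 1 the highest for Rpl15 (ratio 0.811, 15.63 against 15.37 to 15.42). For Rplp1 the ratio was 1.0, since WT replicate 1 read 17.96 and the other 4 arrays shared the value 17.86, because quantile normalization gives the same value to the same rank. The median deviation of the whole set was highest in WT replicate 4, at 0.08 with a ratio of 0.803, as was that of the large subunit, at 0.09 with a ratio of 0.733. The median deviation of the large subunit was lowest among SCC arrays in replicate 4, at -0.02 with a ratio of 0.786.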

How the results depend on the processing

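For the 48 named genes, 941 of 1144 values under alternatives kept their direction and their side of the threshold, 129 kept the direction but missed it, 27 passed anew and 47 turned in sign. The slide as a random block, the deposited value table and the fit with no filter left each main count within 1.5 times its value, as did a plain t-test, the methods' test for 2 groups. The estimated correlation within slides was -0.0174, so the random block nearly repeats the main fit and is no check on the part of the slide. The methods' t-test gave 6525 probes past 2-fold after Benjamini-Hochberg and 5867 at an unadjusted p below 0.01. After adjustment 23 of 82 ribosomal protein genes were higher and 12 lower, beside 22.1% and 25.5% of all tested probes. Medians below are of the log2 difference over the 82 genes, counts of genes higher and lower are at adjusted p below 0.05 (limma), and the cause of each shift was not tested unless given.

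The 75th percentile gave 31 genes higher and 2 lower, beside 25.5% and 24.0% of all tested probes. The median was 0.22, and that of all tested probes moved by over 0.1. Rps20 (0.0295) and Rps4x (0.0068) turned positive, as did genes that had not passed: Rpl11 (0.15), Rpl13a (0.11), Rpl23a (0.0879), Rpl26 (0.0898), Rpl5 (0.21), Rplp0 (0.16), Rplp1 (0.16), Rplp2 (0.23), Rps18 (0.24), Rps27a (0.0584), Rps3 (0.22) and Rps6 (0.10). Median scaling gave 4 genes higher and 2 lower, beside 14.8% and 22.7% of all tested probes, with a median of 0.0561. It gave 15 higher and 10 lower over the related lists, and turned Rpl5 (0.0453), Rplp2 (0.0698), Rps18 (0.0797) and Rps3 (0.0578). Normexp gave 4044 probes past 2-fold in place of 6954, 16 genes lower, beside 27.8% of all tested probes, and 1 gene past 2-fold. It turned Rpl12 (-0.0024), Rpl17 (-0.0353), Rpl19 (-0.024) and Rpl39 (-0.0060).

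A filter on all arrays left 1 gene past 2-fold, since Rpl39l was no longer tested. The 3038 brightest probes alone held 499 probes past 2-fold. Of 74 genes among them 13 were lower, beside 34.3% of these probes, and 0 were past 2-fold. In the related lists 29 were higher and 14 lower, with fewer probes tested. Array quality weights gave 15 of 82 genes lower, beside 35.6% of all tested probes, and turned Rpl19 (-0.0216), Rps18 (0.0376) and Rps6 (0.0131). Without both SCC replicates 2 and 5 there were 14 of 82 genes lower, beside 34.7% of all tested probes, and Rpl19 (-0.0029), Rpl3 (-0.0048), Rps18 (0.0381) and Rps6 (0.0064) turned.

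The slide as a fixed block gave 2989 probes past 2-fold, 0 ribosomal protein genes higher and 1 lower (7 and 3 at an unadjusted p below 0.05, beside 9194 probes in all, or 30.3%), 1 past 2-fold, 16 higher and 2 lower in the related lists, and a median of 0.0493. On slide 2 alone, with 1 WT array whose spread is assumed to equal that of SCC, limma passed 0 probes (5835 at an unadjusted p below 0.05), hence 0 genes in each of these counts, and the median was again 0.0493. Both gave 0.11 for Rpl13a, 0.0488 for Rpl26 and 0.13 for Rpl5.

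With 1 array left out, the probes past 2-fold numbered 6385 to 8135, the genes higher 13 to 20, the genes lower 4 to 12, the genes past 2-fold 2 to 3, the related genes higher 77 to 104 and lower 15 to 33 (25 with all arrays, 15 without WT replicate 2 or 3, and 16 without WT replicate 4 or SCC replicate 4), and the median -0.0102 to 0.0155. In these fits 19.3% to 26.5% of all tested probes were higher and 22.3% to 32.3% lower. Signs turned in Rpl22 (-0.0149 to 0.1137), Rpl3 (-0.0474 to 0.0835), Rpl39 (-0.0327 to 0.0701), Rplp2 (-0.0278 to 0.0133) and Rps18 (-0.0583 to 0.0364), none of which had passed.

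The replicate numbers did not pair the samples, as same-numbered arrays had correlations of -0.07, 0.0093, -0.07, -0.10 and -0.02 in their deviations. The replicate block gave 9 of 82 genes higher and 3 lower, and 8 lower in the related lists. In that fit the shares of the 82 genes that were higher and that were lower both lay below those of all tested probes.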
